A study of Mus musculus with 8 samples.

Results

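The distal ends of the 19 mouse autosomes were examined for H3K27me3 in morulae that had received mRNA for the histone demethylase Kdm6b. A peak was a member when it started within 5 Mb of the largest peak end found on its chromosome in either of 2 peak lists (build mm9). By this rule 229 of the 4991 peaks of the Kdm6bWT list and 4045 of the 90158 peaks of the Kdm6bMUT list were members, 4274 of 95149 in all. Mouse autosomes carry their centromere close to one tip, so the distal end is the far tip of the single long arm. The limit is the last peak and not the end of the assembled chromosome, since no mm9 chromosome lengths were used.

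H3K27me3 is the repressive mark written by Polycomb repressive complex 2. Kdm6b, a Jumonji-family enzyme, removes it. In the mouse preimplantation embryo the mark lies in broad domains, many of them inherited from the oocyte and placed away from genes with active promoters. Regions next to telomeres are known for their repeats, high recombination and, on many chromosomes, dense genes.

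In the Kdm6bWT group zygotes received Kdm6b mRNA, and in the Kdm6bMUT group the mRNA encoded a mutated version. Both were injected at 1.8 µg/µl, 2.5 to 4 hours after fertilization, and collected as morulae. The labels give the embryos of both groups as BDF1xPWK hybrids, from oocytes of 8 week-old BDF1 females, and they do not say what the mutation is or how many morulae went into a ChIP. The titles of the 2 inputs name an injection, whereas their treatment tag says that none was made. Each injection has 1 library of ultra-low-input native ChIP-seq, called by the submitters against input, so each value below describes 1 library, no p-value is given, and read depth is unknown. The Kdm6bMUT list is far longer than the Kdm6bWT list, and depth and injection cannot be told apart as sources of that difference, so the ends are set against the rest within each list. The 4 RNA-seq libraries of the series were not used here.

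Pooled over the 19 chromosomes, the distal ends carried only slightly more H3K27me3 peaks than the rest of the same chromosomes, in both libraries. The Kdm6bWT list had 2.41 peaks per Mb in the ends and 1.97 per Mb in the rest, a ratio of 1.22 (95% exact interval 1.06 to 1.40, counting error only). In the Kdm6bMUT list the density was 42.6 peaks per Mb in the ends and 36.7 in the rest, a ratio of 1.16 (1.12 to 1.20). Peaks of the Kdm6bWT list covered 0.162% of the ends and 0.139% of the rest. Kdm6bMUT peaks covered 11.4% of the ends, or 10876 kb, and 10.2% of the rest. The ends make up 3.95% of the length compared, and they held 4.78% of the autosomal peaks of the Kdm6bWT list and 4.55% of those of the Kdm6bMUT list. Neighbouring peaks are not independent, so these intervals are narrower than the true uncertainty.

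This small excess depended on which chromosomes and which length were counted. Taken as the median of the 19 chromosomes' own ratios, peak density was 1.03 times the rest in the Kdm6bWT list and 0.925 times the rest in the Kdm6bMUT list. With a window of 2 Mb the Kdm6bMUT ends were covered 0.685 times as much as the rest, against 1.12 times with 5 Mb and 1.38 times with 10 Mb. For the Kdm6bWT list the coverage ratio was 0.977 with 2 Mb, 1.16 with 5 Mb and 1.32 with 10 Mb. Without chromosome 17 the density ratio of the Kdm6bMUT list was 1.07. With the first 5 Mb of each chromosome left out of the rest, the Kdm6bMUT ratios were 1.08 for coverage and 1.13 for density. Those of the Kdm6bWT list were then 1.17 and 1.20.

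Peaks in the ends were shaped like those elsewhere. Their median width was 457 bases (quartiles 312 and 962) in the Kdm6bWT list, against 493 bases (303 and 971) in the rest. For the Kdm6bMUT list it was 1625 bases (800 and 3302) in the ends and 1581 bases (783 and 3329) in the rest. Broad domains of 10 kb or more, the form typical of the mark in early embryos, numbered 0 among the 229 Kdm6bWT members, which allows a share of up to 1.60% (upper exact bound), against 0.0401% of that whole list. Among Kdm6bMUT members there were 146, or 3.61% (95% exact interval 3.06% to 4.23%), against 4.31% (4.17% to 4.45%) of the rest and 4.27% of the whole list. These domains held 19.7% of the Kdm6bMUT bases in the ends and 24.0% in the rest. The share of domains was thus a little lower in the ends.

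Fold enrichment over input, a value the submitters' caller gave each peak, did not set the ends apart within either list. Its median was 3.86 in the ends and 3.84 in the rest for the Kdm6bWT list, and 3.06 and 3.07 for the Kdm6bMUT list. The highest values in the ends were 6.42 (Kdm6bWT) and 4.99 (Kdm6bMUT), against 49.5 and 6.56 in the rest. The Kdm6bWT peak with the value of 49.5 lay at the other tip, in the first 5 Mb of a chromosome. Spacing in the Kdm6bMUT list was also close to that elsewhere, with a median distance between neighbouring peaks of 2851 bases in the ends and 3026 bases in the rest. In the Kdm6bWT list this distance was 187796 bases in the ends and 223778 bases in the rest.

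**Figure D1:**
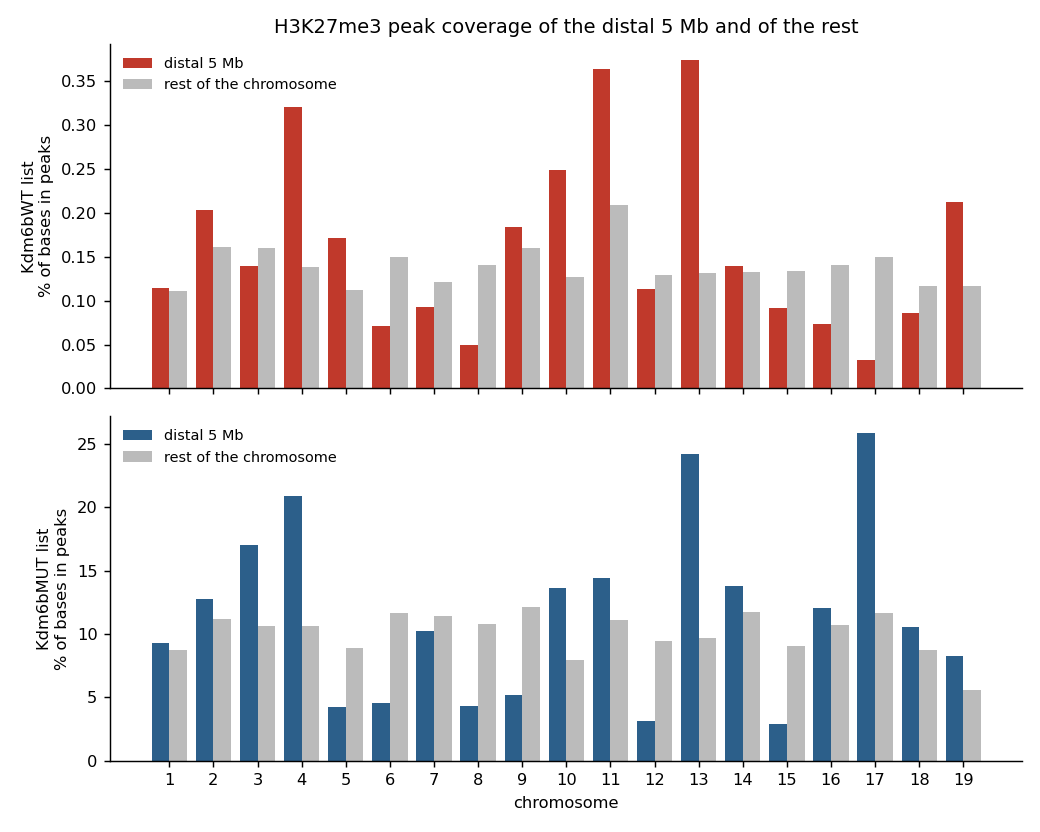
Percent of bases in H3K27me3 peaks for each autosome, with the distal 5 Mb (coloured) left of the rest of that chromosome (grey), in the Kdm6bWT list (top) and the Kdm6bMUT list (bottom); each bar is 1 library without replicates and the scales of the panels differ. Kdm6bMUT coverage of the ends runs from 2.92% on chromosome 15 to 25.9% on chromosome 17.

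Single ends differed far more than the pooled value shows. Kdm6bMUT coverage of an end ranged from 2.92% (chromosome 15) to 25.9% (chromosome 17) with a median of 10.6%, whereas the rest of the chromosomes lay between 5.62% and 12.2%. In the Kdm6bWT list the ends ranged from 0.0323% (chromosome 17) to 0.374% (chromosome 13) with a median of 0.139%, and the rest from 0.111% to 0.209%. Coverage was above that of the rest at 10 of 19 ends in the Kdm6bWT list and at 12 of 19 in the Kdm6bMUT list. With a window of 10 Mb these counts were 14 and 16, and with 2 Mb 10 and 4. With 5 Mb it was so in both lists at 8 ends and in neither at 5. The remaining ends went different ways in the 2 lists, with 2 above the rest in the Kdm6bWT list alone and 4 in the Kdm6bMUT list alone.

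Departures of this size were common anywhere on the autosomes. All 19 chromosomes were cut into 470 windows of 5 Mb counted back from the distal limit, the ends included, and each window was set against the rest of its chromosome. In the Kdm6bWT list 6 of 19 ends (31.6%, 95% exact interval 12.6% to 56.6%) were covered at least 1.5 times as much as the rest, as were 19.1% of all windows. At 4 ends (21.1%, 6.05% to 45.6%) it was 1.5 times less or lower still, as in 37.2% of all windows. In the Kdm6bMUT list 5 ends were past this fold on the high side (26.3%, 9.15% to 51.2%), against 23.4% of all windows. On the low side there were 6 ends (31.6%, 12.6% to 56.6%), against 37.2% of all windows. All 4 shares have intervals that contain the share of all windows, so at this number of ends no difference from other stretches of this length was detectable. The fold of 1.5 was set after the values were seen.

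**Figure D2:**
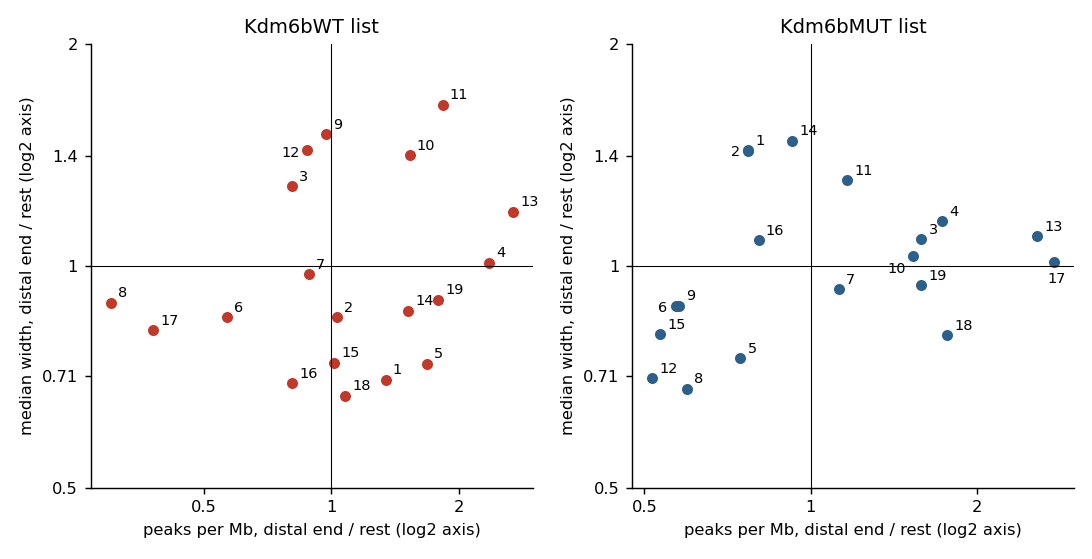
Peak density (x) and median peak width (y) of each distal end divided by those of the rest of its chromosome, on log2 axes, for the Kdm6bWT list (left) and the Kdm6bMUT list (right); numbers are chromosomes. In the Kdm6bMUT panel chromosomes 13 and 17 lie far right with a width ratio near 1, and chromosomes 1, 2 and 14 lie left of 1 with wider peaks.

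The 3 ends most covered relative to their chromosome in the Kdm6bMUT list were those of chromosomes 13, 17 and 4. On chromosome 13 (115109649 to 120109648) 428 Kdm6bMUT peaks covered 24.2% of the end, against 9.68% of the rest, a ratio of 2.50. On chromosome 17 (89350061 to 94350060) 527 peaks covered 25.9%, against 11.7% of the rest, a ratio of 2.22. The chromosome 4 end (150444860 to 155444859) held 329 peaks and 20.9% coverage, against 10.7%, a ratio of 1.96. All 3 held more peaks than the rest, at 2.57, 2.76 and 1.73 times its density, while their median widths of 1814, 1632 and 1826 bases were close to the 1652, 1611 and 1588 bases of the rest. Their extra coverage was therefore mostly a matter of peak number. With a window of 10 Mb the ratio of chromosome 4 was 1.28. Among their own chromosome's windows these ends ranked 2 of 23 (chromosome 13), 4 of 18 (chromosome 17) and 4 of 30 (chromosome 4).

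The Kdm6bMUT ends least covered relative to their chromosome were those of 15, 12 and 6, which had both fewer and narrower peaks than the rest. The chromosome 15 end (97892561 to 102892560) held 89 peaks over 2.92% of its length, against 9.06% of the rest, a ratio of 0.323. On chromosome 12 (116255969 to 121255968) 89 peaks covered 3.18%, against 9.45%, a ratio of 0.336. On chromosome 6 (144353281 to 149353280) 117 peaks covered 4.58%, against 11.6%, a ratio of 0.393. The median widths at these ends were 1281, 1132 and 1399 bases, against 1587, 1609 and 1588 bases in the rest. Domains of 10 kb or more numbered 0 of 89, 1 of 89 and 0 of 117 peaks. At the ends of chromosomes 13, 17 and 4 they numbered 13 of 428, 14 of 527 and 16 of 329. The share over the whole Kdm6bMUT list was 4.27%. All 6 ends were picked by coverage, to which such domains add, so these counts are not a separate result.

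How low these ends were depended on the stretch counted. On chromosome 12 the ratio was 0.773 with a window of 2 Mb, 0.789 with 10 Mb and 0.196 without the last 1 Mb, and on chromosome 15 it was 0.758 with 2 Mb. With the Kdm6bMUT list held to the weakest p of the Kdm6bWT list, it was 0.174 on chromosome 12 and 0.186 on chromosome 15. The low coverage of chromosomes 15 and 6 did not reach past the end. With the window extended to 10 Mb, coverage was 1.80 times the rest on chromosome 15 and 1.08 times the rest on chromosome 6. On chromosome 15 the neighbouring 5 Mb (92892561 to 97892560) was covered to 26.3% by Kdm6bMUT peaks, and its 0.543% of Kdm6bWT coverage was the highest of all 470 windows. A stretch dense in both libraries thus lay beside the least covered end of the Kdm6bMUT list.

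Wide peaks in place of many peaks marked other ends. The chromosome 1 end held 26.4 Kdm6bMUT peaks per Mb against 34.3 in the rest, and the chromosome 2 end 30.6 against 39.8. Their median widths, 2022 and 2257 bases, were above the 1411 and 1574 bases of the rest, and coverage was 1.06 and 1.14 times the rest. The chromosome 18 end was the opposite, with 58.2 peaks per Mb against 32.9 and peaks of 1234 bases at the median, against 1532 bases. Median fold enrichment at single ends stayed between 2.93 and 3.17 in the Kdm6bMUT list.

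In the Kdm6bWT list the ends most covered relative to their chromosome were 13, 4 and 10. The chromosome 13 end held 26 Kdm6bWT peaks (95% exact Poisson interval 16.98 to 38.1, counting error only), where the density of the rest would give 9.71. They covered 0.374% of it, 2.83 times the rest, and this was the most covered of its chromosome's 23 windows. The chromosome 4 end held 23 peaks (14.6 to 34.5), against 9.80 at the density of the rest, and its coverage of 0.320% was 2.31 times the rest. The chromosome 10 end held 14 peaks (7.65 to 23.5), against 9.16, with 0.249% covered, 1.96 times the rest. For chromosome 10 the interval of the count contains the density of the rest, so its higher coverage came with a count not told apart from it. All 3 ends were picked as the highest of 19 by coverage, which these same peaks make up. Their count intervals are therefore not a test of the departure, and neighbouring peaks are not independent. The coverage ratio of the chromosome 10 end was 1.07 with a window of 10 Mb and 3.17 over peaks of at least 1 kb.

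The least covered Kdm6bWT ends were 17, 8 and 6, all with few peaks. Chromosome 17 had 4 peaks (1.09 to 10.2), against 10.5 at the density of the rest, and 0.0323% coverage, 0.215 times the rest. On chromosome 8 (126598783 to 131598782) there were 3 peaks (0.619 to 8.77), against 9.93, and 0.0493% coverage, 0.350 times the rest. Chromosome 6 had 6 peaks (2.202 to 13.1), against 10.6, and 0.0714% coverage, 0.476 times the rest. The interval of the count contains the density of the rest for chromosome 6 and lies below it for chromosomes 17 and 8. These ends too were picked as extremes by coverage, so their count intervals are not a test of the departure. With so few peaks the ratios moved with the setting: on chromosome 8 to 0.814 above a score floor of 13, 0.736 with 10 Mb and 0 with 2 Mb. On chromosome 17 the ratio was 0.432 above the score floor, 0.102 with 2 Mb and 0 over peaks of at least 1 kb. On chromosome 6 it was 0.223 above the score floor, 0.101 with 2 Mb and 0.311 over peaks of at least 1 kb. The chromosome 8 and 6 ends were also poor in Kdm6bMUT coverage, at 4.36% and 4.58%. Only the chromosome 17 end was among the 3 lowest in one list and the 3 highest in the other.

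**Figure D3:**
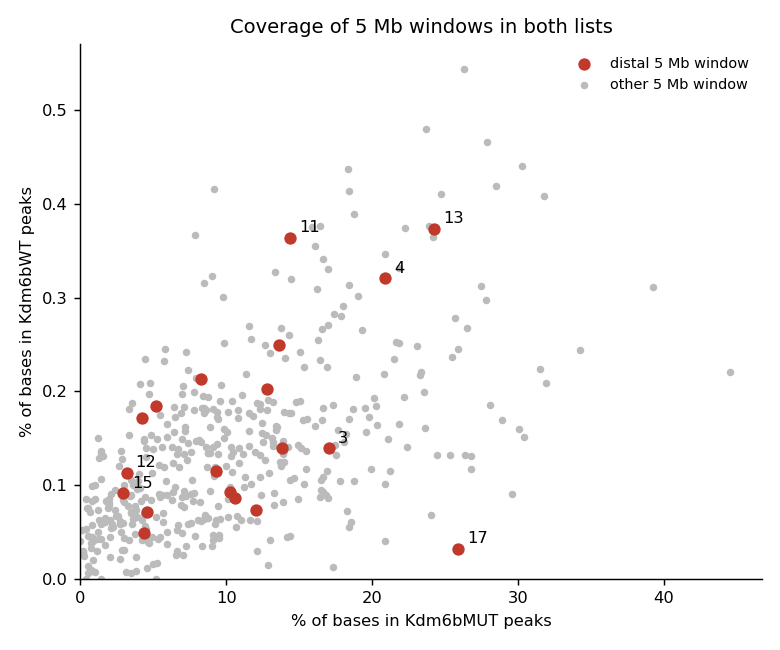
Each point is 1 of 470 windows of 5 Mb, with the percent of its bases in Kdm6bMUT peaks (x) and in Kdm6bWT peaks (y); distal windows are large and red, some with their chromosome, and the others grey. The ends of chromosomes 13, 4 and 11 lie high in both lists, and that of chromosome 17 lies at 25.9% and 0.0323%.

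The chromosome 17 end held almost no Kdm6bWT coverage on an end dense in Kdm6bMUT peaks. Kdm6bWT peaks amounted to 1.615 kb in this end, against 1295 kb of Kdm6bMUT peaks, a share of 0.125%. The same share was 1.29% in the rest of chromosome 17 and 1.42% over all distal ends together. Only 1 of its 527 Kdm6bMUT peaks (0.190%, 95% exact interval 0.00480% to 1.05%) shared a base with a Kdm6bWT peak, against 2.94% in the rest of the chromosome. An end named for its few Kdm6bWT peaks has few touched peaks by construction. From the other side 1 of its 4 Kdm6bWT peaks (25%, 0.631% to 80.6%) lay on a Kdm6bMUT peak, with an interval that contains the 56.6% of the rest. Of the other windows among the 470, 5 had a lower share of covered bases. Among the 56 windows covered to at least 20% by Kdm6bMUT peaks, a limit set after the values were seen, its Kdm6bWT coverage ranked 1 from the lowest, with a median of 0.221% over the 56. The 5 Mb next to it (84350061 to 89350060) was the opposite, with 27 Kdm6bWT peaks and 0.413% coverage, the highest of the chromosome, beside 18.4% Kdm6bMUT coverage. With a window of 10 Mb, Kdm6bWT coverage of the chromosome 17 end was 1.66 times the rest, so the sparse stretch did not extend over the last 10 Mb. With a window of 2 Mb its Kdm6bMUT coverage was 0.771 times the rest, so the dense stretch did not reach the tip.

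Coverage of an end in one library went only loosely with its coverage in the other. At 4 ends, chromosome 17 among them, it was above the rest in the Kdm6bMUT list alone, and at 2 in the Kdm6bWT list alone. Across the 19 ends the covered shares of both lists had a Spearman correlation of 0.36 and a Pearson correlation of 0.41. Without chromosome 17, left out after its values were seen, they were 0.60 and 0.69 over 18 ends, and over all 470 windows 0.60 and 0.59. Windows share chromosome, base composition and mappability, so these are descriptions and carry no p-value. The bases of Kdm6bWT peaks were between 0.125% (chromosome 17) and 4.04% (chromosome 5) of the Kdm6bMUT bases of an end, with a median of 1.54%, against a median of 1.46% over all windows. The 5 ends with the highest share (5, 12, 9, 15 and 19) all had less than 10% Kdm6bMUT coverage: 4.24% on chromosome 5, 3.18% on 12, 5.16% on 9, 2.92% on 15 and 8.24% on 19. Kdm6bMUT coverage is the divisor of this share, so a low coverage raises it by construction. Low Kdm6bMUT coverage did not always go with a high share, since the ends of chromosomes 8 and 6, at 4.36% and 4.58% coverage, had shares of 1.13% and 1.56%. The next end, chromosome 11, had a share of 2.53% at 14.4% coverage.

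Overlap between the lists differed between the ends and the rest by less than the counting error. Of the 229 Kdm6bWT members, 120 (52.4%, 95% exact interval 45.7% to 59.0%) lay on a Kdm6bMUT peak, against 50.1% (48.6% to 51.5%) in the rest and 49.5% of the whole list. Of the 4045 Kdm6bMUT members, 117 (2.89%, 2.40% to 3.46%) shared a base with a Kdm6bWT peak, against 2.62% (2.51% to 2.73%) in the rest and 2.66% of the whole list. By length, 45.4% of the Kdm6bWT bases in the ends lay in Kdm6bMUT peaks. That is 3.96 times the share of the ends that Kdm6bMUT peaks cover, and the same figure was 4.22 in the rest. The median Kdm6bWT member on a Kdm6bMUT peak was 570 bases wide, and the median of the others was 387 bases. The share of Kdm6bWT members on Kdm6bMUT peaks was lower with a shorter Kdm6bMUT list. It was 34.5% with that list held to the weakest p of the Kdm6bWT list. With the Kdm6bMUT list cut by score to the length of the Kdm6bWT list, a setting chosen after seeing the data, it was 2.62%. Of the 109 Kdm6bWT members off Kdm6bMUT peaks, 54 (49.5%, 39.8% to 59.3%) lay within 5 kb of one, against 43.0% (40.9% to 45.0%) in the rest. A further 34 of the 109 (31.2%) lay more than 50 kb from any Kdm6bMUT peak, against 35.2% in the rest.

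Overlap also varied among single ends. On chromosomes 4 and 13, 17 of 23 (73.9%, 51.6% to 89.8%) and 18 of 26 (69.2%, 48.2% to 85.7%) Kdm6bWT peaks lay on Kdm6bMUT peaks. On chromosome 6 it was 0 of 6, which allows a share of up to 45.9% (upper exact bound), and none of its 117 Kdm6bMUT peaks was touched (up to 3.10%). In the rest of these chromosomes the Kdm6bWT shares were 58.5% (chromosome 4), 53.0% (13) and 53.9% (6). They lay inside the interval of the end for 4 and 13 and above it for 6, an end picked here for its share. The highest Kdm6bWT share was at the chromosome 9 end, 8 of 10 (80%, 44.4% to 97.5%), with an interval that contains the 56.5% of its rest. In the Kdm6bMUT list the chromosome 9 end had the highest touched share, 8 of 114 or 7.02% (3.08% to 13.4%), against 2.94% in the rest of chromosome 9. It too was picked as an extreme of the 19. On chromosome 11, 13 of 201 Kdm6bMUT peaks were touched (6.47%, 3.49% to 10.8%), against 2.80% in the rest. It was likewise picked for its high share. The chromosome 11 end also held 4.2 Kdm6bWT peaks per Mb, against 2.30 in the rest. Its Kdm6bMUT peaks had a median width of 2372 bases, against 1816, and the part of either in the touched share was not tested.

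**Figure D4:**
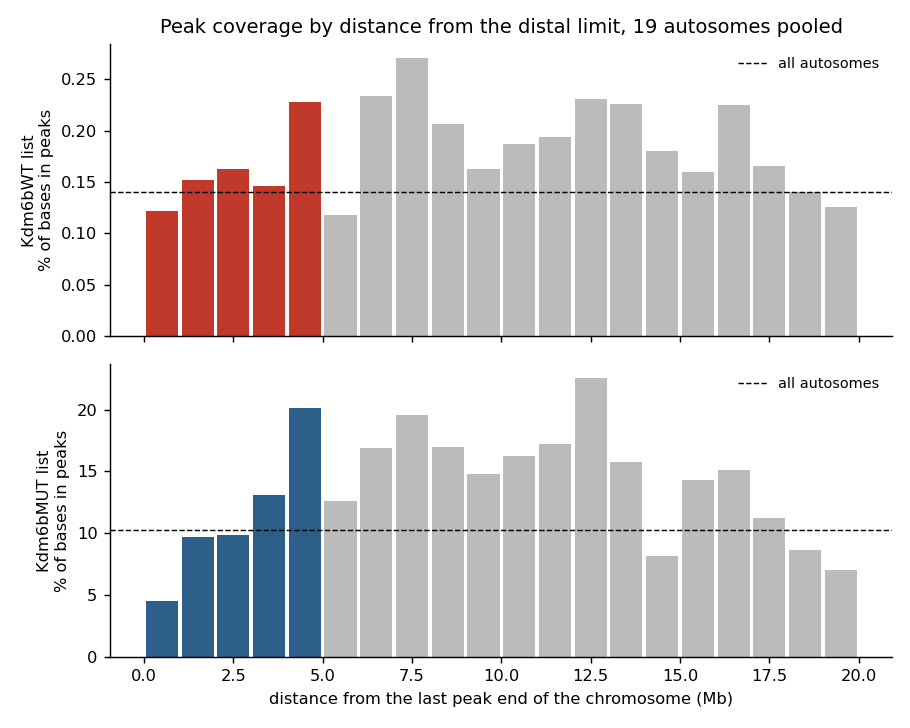
Percent of bases in peaks by distance from the distal limit in bins of 1 Mb, pooled over 19 autosomes, for the Kdm6bWT list (top) and the Kdm6bMUT list (bottom); coloured bins are the distal 5 Mb and the dashed line is the autosomal share. Kdm6bMUT coverage is 4.52% in the last 1 Mb and 20.2% between 4 and 5 Mb.

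Within the ends, coverage was low at the very tip and higher further in. Assembly gaps and mappability near the tips were not measured, and their part in this was not tested. In the Kdm6bMUT list the last 1 Mb was covered to 4.52%, the next bins of 1 Mb to 9.66%, 9.85% and 13.1%, and the bin from 4 to 5 Mb to 20.2%, against 10.3% of the autosomes together. Widths followed, with a median of 1182 bases in the last 1 Mb and 1813 bases between 4 and 5 Mb. The last 1 Mb was less covered than the mean of the next 4 bins on 17 of 19 chromosomes, the exceptions being chromosomes 12 and 18. Between 6 and 14 Mb every bin was covered to between 14.8% and 22.5%. In the Kdm6bWT list the last 1 Mb was covered to 0.122%, the bins from 1 to 4 Mb to 0.152%, 0.163% and 0.146%, and the bin from 4 to 5 Mb to 0.228%, against 0.140% of the autosomes. It was lower at the tip than the mean of the next 4 bins on 14 of 19 chromosomes.

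The limit of 5 Mb falls next to a step. In the bin just inside it (4 to 5 Mb) 1235 Kdm6bMUT and 71 Kdm6bWT peaks started, and just outside (5 to 6 Mb) 749 and 42. The member nearest the limit was a Kdm6bMUT peak of 2.99 kb on chromosome 1 (192068840 to 192071831), and the nearest peak outside it one of 325 bases on chromosome 6 (144352256 to 144352580). The limit itself was set by a Kdm6bWT peak on chromosomes 1, 2, 11 and 15. On chromosome 11 the last Kdm6bMUT peak ended 1421605 bases before it, so the last 1 Mb there has no Kdm6bMUT coverage. On chromosome 8 the last Kdm6bWT peak ended 2559425 bases before the limit, which a Kdm6bMUT peak set. Over all 19 ends, 7 had no Kdm6bWT coverage in the last 1 Mb and 1 had no Kdm6bMUT coverage. In the other 1 Mb bins up to 20 Mb, between 1 and 7 chromosomes had no Kdm6bWT coverage. For Kdm6bMUT coverage it was between 0 and 2.

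**Figure D5:**
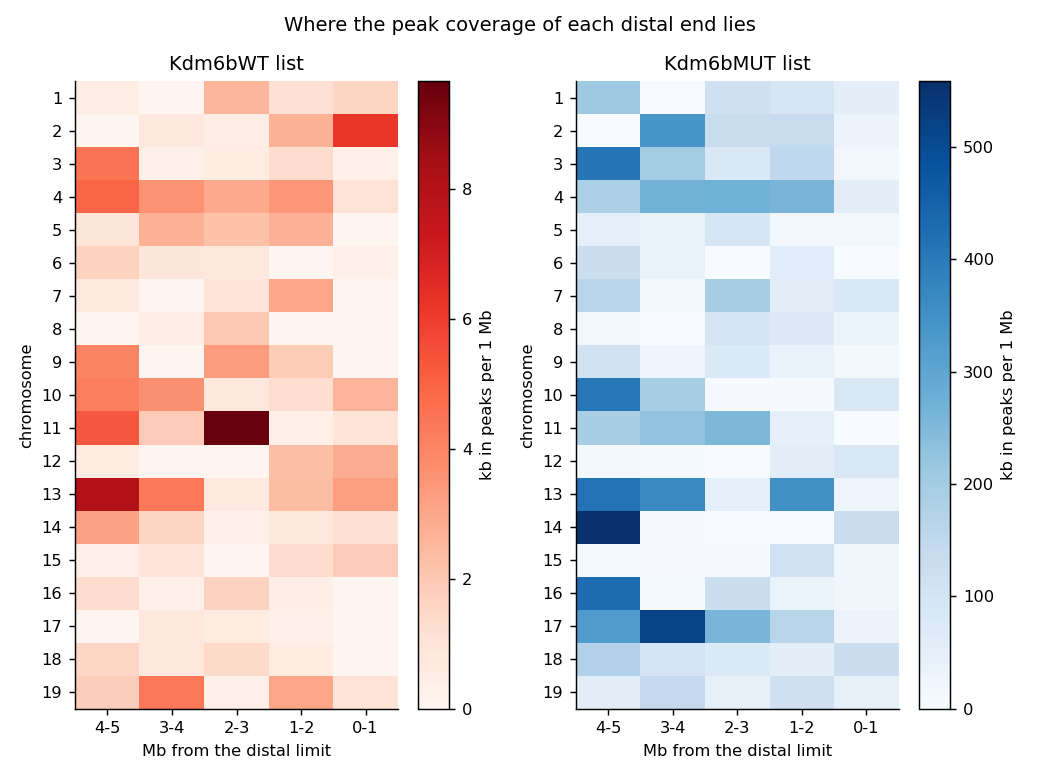
Kilobases in peaks per 1 Mb bin of each distal end, by distance from the distal limit (x, the tip at the right) and chromosome (y), for the Kdm6bWT list (left, 0 to 9.66 kb) and the Kdm6bMUT list (right, 0 to 559 kb). Single bins such as those of chromosomes 14 and 16 between 4 and 5 Mb carry most of an end's Kdm6bMUT coverage, whereas chromosome 4 is covered along most of its end.

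A single bin often carried an end. Among the 3 bins with the most Kdm6bMUT coverage were those between 4 and 5 Mb from the limit on chromosome 14 (120166183 to 121166182, 559 kb) and chromosome 16 (92880428 to 93880427, 426 kb). Kdm6bWT peaks covered 3.15 kb of the chromosome 14 bin and 1.29 kb of the chromosome 16 bin. On chromosome 14 the 3 bins between 1 and 4 Mb had 1.96 kb, 0.414 kb and 2.64 kb of Kdm6bMUT coverage, so the coverage of that end lay almost wholly in its innermost bin and in the last 1 Mb, which had 128.0 kb. Chromosome 4 was evenly covered, with 262 kb, 271 kb, 269 kb and 185 kb in the 4 bins between 1 and 5 Mb. On chromosome 13 coverage was 351 kb, 51.5 kb, 366 kb and 416 kb over the same bins.

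In the Kdm6bWT list the most covered bins were on chromosome 11 between 2 and 3 Mb (118587469 to 119587468, 9.66 kb), chromosome 13 between 4 and 5 Mb (115109649 to 116109648, 8.03 kb) and chromosome 2 in the last 1 Mb (180747954 to 181747953, 6.22 kb). Kdm6bMUT coverage of these bins was 254 kb, 416 kb and 31.5 kb. The chromosome 11 and 13 bins were thus dense in both libraries, whereas Kdm6bMUT coverage of the chromosome 2 tip was the median of the 19 last bins.

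Long runs of Kdm6bMUT peaks, joined where gaps were under 10 kb, lay in 8 of the 19 ends. The ends held 16 runs of 200 kb or more, or 16.8 per 100 Mb, against 15.9 per 100 Mb over the autosomes. Chromosome 17 held 4 of them, chromosome 3 held 3, and chromosomes 2, 13 and 14 held 2 each. Counted inside the 5 Mb, the longest was a run of 56 peaks over 422 kb on chromosome 14 (120168552 to 120590722), part of a run of 489 kb that continues past the 5 Mb limit. A run on chromosome 16 had 338 kb inside the limit and 757 kb in full (92470954 to 93228371), longer than the chromosome 14 run in full. Among the 3 longest was also a run of 52 peaks over 362 kb on chromosome 13 (115923775 to 116286254). Kdm6bMUT peaks filled 64.8% of the chromosome 14 run and 58.4% of the chromosome 13 run. Kdm6bWT peaks held 0.191% of the Kdm6bMUT bases of the chromosome 14 run, with 2 peaks, and 0.289% of those of the chromosome 13 run, with 1 peak, against 0.643% over all Kdm6bMUT bases of the ends. Of the 16 runs, 4 contained no Kdm6bWT peak. The share among the 382 such runs of the autosomes was not counted, so this number does not set the ends apart.

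The widest single Kdm6bMUT domains of the ends lay on chromosomes 4 and 16. A domain of 43.6 kb on chromosome 4 (152778657 to 152822292) had a fold enrichment of 3.43 and shared 741 bases with Kdm6bWT peaks. On chromosome 16 a domain of 40.0 kb (93085589 to 93125634, fold 3.64) shared none, and one of 30.2 kb (92989063 to 93019276, fold 3.39) shared 300 bases. The widest Kdm6bWT members were 3.42 kb on chromosome 2 (181663785 to 181667203), 2.59 kb on chromosome 10 (129678155 to 129680742) and 2.47 kb on chromosome 11 (118954574 to 118957042). The chromosome 11 peak lay wholly inside a Kdm6bMUT domain, and the chromosome 10 peak was 7354 bases from the nearest Kdm6bMUT peak.

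The tip of chromosome 2 held a high-scoring member of each list. The highest-scoring Kdm6bWT member (score 84) lay there (181652008 to 181653821), with a fold enrichment of 3.51, below the median of 3.86 in the ends. It was 11059 bases from the nearest Kdm6bMUT peak. About 0.0842 Mb from the limit, the widest Kdm6bWT member enclosed a Kdm6bMUT peak of 959 bases (181664881 to 181665839) whose score of 42 was the second highest among Kdm6bMUT members, with a fold enrichment of 2.82, below the median of 3.06. The next Kdm6bWT members by score lay on chromosome 18 (85867358 to 85867669, score 60, fold 6.42) and chromosome 8 (128302822 to 128303265, score 44, fold 4.33). Neither touched a Kdm6bMUT peak. The other high-scoring Kdm6bMUT members, on chromosome 5 (147307467 to 147307781, score 45) and chromosome 12 (116875169 to 116875782, score 40), were 315 and 614 bases wide, and the nearest Kdm6bWT peaks were 113624 and 370469 bases away.

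The opposite tip of the autosomes held fewer peaks than the distal one in both lists, but less coverage only in the Kdm6bMUT list. In the first 5 Mb after the first peak, next to the centromere, Kdm6bMUT peaks numbered 1089 and covered 1.98%, against 4045 and 11.4% in the distal ends. In the Kdm6bWT list the first 5 Mb held 125 peaks and 0.165% coverage, against 229 and 0.162% in the distal ends. Its density was 1.32 peaks per Mb there, against 2.41, and the mean peak width 1256 bases, against 673. Of the 125 peaks, 2 were 10 kb or more and held 16.5% of the Kdm6bWT bases in the first 5 Mb. The Kdm6bWT peaks that lay on Kdm6bMUT peaks were 18.4% (12.0% to 26.3%) there and 52.4% (45.7% to 59.0%) in the distal ends, but Kdm6bMUT coverage differs between these stretches too. Relative to that coverage, the share of Kdm6bWT bases in Kdm6bMUT peaks was 6.17 times in the first 5 Mb and 3.96 times in the distal ends.

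Genes were not placed on these ends, because the annotation used here is of GRCm38, another build than the mm9 of the peaks. As background, the last protein-coding genes in the GRCm38 order of RefSeq include, on chromosome 17, Fshr (the receptor of follicle-stimulating hormone) and Adcyap1 (a neuropeptide). On chromosome 13 they include Tcstv1 and Tcstv3, genes known from the 2-cell-like state of mouse embryonic stem cells. On chromosome 14 they include Zic2 and Zic5, zinc-finger transcription factors of neural development, and Fgf14. On chromosome 15 they include Itga5, an integrin subunit, and on chromosome 12 Sp8, a transcription factor of limb outgrowth. No peak was assigned to any of them.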

How the data were processed

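Peaks of 1 H3K27me3 ChIP library per injection were used, without replicates, and groups were taken from sample titles. Per the submitters' processing notes the series used Bowtie2 2.2.2, MACS2 and mm9; caller settings, duplicate handling and depth were not given in the sources used here. A deeper library gives longer lists, so ends were compared with the rest within a list. The authors deposited for each peak a fold enrichment over input (a ratio), a whole-number score, and −log10 p and −log10 q values. Starts were converted to count from 1.

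Density, width and coverage were computed with scipy 1.17.1, pandas 2.3.3 and numpy 2.4.6 under Python 3.11.15. Figures used matplotlib 3.10.9. Lengths ran from the first to the last peak of a chromosome in either list. A peak's bases went to the zone of its start; bins of 1 Mb were cut at their boundaries. Overlap meant at least 1 shared base. Intervals are 95% exact (binomial or Poisson) and cover counting error only. The code recovered planted peaks when tested on simulated data.

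Named were the 3 most and 3 least covered ends relative to the rest of the chromosome, the 3 widest and 3 highest-scoring members and the 3 most covered bins of each list, and the 3 longest runs; 1 bin and 1 run named by this rule are not reported here. Members and measures were chosen with earlier results of these data known; the 1.5-fold limit and the 20% coverage limit were set after values were seen.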

Additional observations from a re-analysis of the deposited data

How the results depend on the processing

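No paired analysis was possible because no injection was repeated among the ChIP libraries. Of 93 values of the main measures under alternative settings, 61 stayed within the value's exact interval or, where it has none, within 1.5 times, 28 did not and 4 changed direction; the cause was not tested, except that floors and minimum widths leave fewer peaks by construction. With a window of 2 Mb, density over the rest was 1.00 (Kdm6bWT) and 0.931 (Kdm6bMUT), coverage 0.977 and 0.685, the ends above the rest in the Kdm6bMUT list 4, and the share of Kdm6bWT peaks on Kdm6bMUT peaks 44.7%. With 10 Mb, density was 1.43 and 1.20 and the touched Kdm6bMUT share 3.50%. The median over chromosomes gave densities of 1.03 and 0.925. Without the last 1 Mb (chosen after seeing the data) Kdm6bMUT density was 1.26, and with peaks under 5 kb apart joined it was 1.09. Joining also gave a Kdm6bMUT median width of 5061 bases and overlapped shares of 63.1% (Kdm6bWT) and 9.29% (Kdm6bMUT). Peaks of at least 1 kb had median widths of 1272 and 2459.5 bases, shares of 63.3% and 1.12%, and Kdm6bWT bases at 0.692% of Kdm6bMUT bases, against 1.42%. That percentage was 0.643% with a score floor of 13, where 1.46% of Kdm6bMUT peaks were touched, and 2.23% at the weakest Kdm6bWT p, where the shares were 34.5% and 4.09%. An overlap of 50% gave 43.2% and 0.222%, shares of bases 45.4% and 0.643%, and lists of equal length (chosen after seeing the data) 2.62% and 2.33%. Leaving out each chromosome gave Kdm6bMUT densities of 1.07 (without 17) to 1.20 (without 6). Of 120 values for single ends, 98 stayed within 1.5 times, 18 did not and 4 changed direction: with 10 Mb, chromosome 15 (1.80) and 6 (1.08) in Kdm6bMUT and 17 (1.66) in Kdm6bWT; with 2 Mb, chromosome 17 in Kdm6bMUT (0.771).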
